A study of Saccharomyces cerevisiae with 4 samples.

Results

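The genes that encode the subunits of the nuclear RNA polymerases I, II and III (Pol I, Pol II and Pol III) were compared between 2 strains of the budding yeast Saccharomyces cerevisiae. The 31 genes were taken by name and not by their values, out of 5656 genes that had at least 1 probe set of their own on the array. They comprise 7 subunits found in Pol I alone, 7 in Pol II alone and 10 in Pol III alone, 5 common to all 3 enzymes, and 2 shared by Pol I and Pol III. All 31 lay above the filter on low signal and were among the 4576 genes tested.

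RNA came from 2 cultures of a wild-type strain and 2 cultures of a strain carrying the histone H3 K4,36,79R mutant, in which lysines 4, 36 and 79 are replaced by arginine. All 4 cultures were sampled at 0 h, in mid-log growth in selective galactose medium, and each was read on its own Affymetrix array. In this system galactose keeps wild-type H3 expressed and a move to glucose shuts it off, so at 0 h mutant H3 was not yet the sole source of H3. The sources used here do not give the strain background, the remaining genotype or the number of independent clones, and later time points were not analysed here. The 3 probe sets for H3 are each shared by both H3 genes and do not tell the mutant protein's codons from the wild type's, so they cannot check the genotype.

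Pol I makes the large ribosomal RNA precursor, Pol II makes messenger RNAs and most small nuclear and nucleolar RNAs, and Pol III makes transfer RNAs, 5S ribosomal RNA and U6. The enzymes are built on one plan: a pair of large catalytic subunits, an assembly platform related to the bacterial alpha subunits, a stalk that binds the emerging RNA, a zinc-ribbon subunit tied to RNA cleavage, and small subunits that are used by every enzyme. The lysines replaced in the mutant are methylated by Set1, Set2 and Dot1, and the first pair of these act on chromatin that Pol II is transcribing; Set2 binds the phosphorylated C-terminal domain of the largest Pol II subunit. The comparison asks whether transcripts of the polymerases themselves already differed between the strains in galactose.

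The typical tested gene had a median deposited signal of 103 and 97.9 in the wild-type cultures, and of 88.8 and 97.7 in the mutant cultures. Signals were therefore compared after each array had been centred on its median over tested genes; without this step every difference given here would be 0.11 lower, for all genes alike. Each array reads RNA of a whole culture, so fewer cells with a transcript and less of it per cell cannot be told apart. The galactose genes were read at high signal in every culture, GAL1 at 1454 and 1424 in wild-type cultures against 1058 and 1263 in mutant ones. After centring, GAL1, GAL7 and GAL10 differed by -0.21, -0.33 and -0.37 on the log2 scale, mutant minus wild type. For each, both mutant cultures lay below both wild-type cultures, as for 18.5% of tested genes. Their limma adjusted p-values ran from 0.668 to 0.829. URA3, a selection marker, separated the strains, with 14.1 and 14.6 against 594 and 643. The strains thus differ in this marker as well as in H3, and effects of the 2 cannot be told apart here. The ratio of 3' to 5' signal on the actin control was 1.53 and 1.40 in wild-type cultures against 1.81 and 1.53 in mutant ones, so that the strains barely parted on it. On the other 2 such controls the strains overlapped. The ratios for SPT15 were 3.36 and 2.72 in wild-type against 3.55 and 2.38 in mutant cultures. For SRB4 wild-type cultures gave 3.59 and 6.82, replicate 2 being the highest of the 4 arrays, and mutant cultures 5.25 and 3.96. The part of RNA quality in the values that follow was not tested.

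None of the 31 subunit genes passed the threshold: 0 rose and 0 fell at a Benjamini-Hochberg adjusted p under 0.05 in limma. The whole table gave 2 calls, URA3 among them, or 0.0437% of tested genes. Adjusted p-values of the members ran from 0.488 for RPB3 to 0.997. At an unadjusted p under 0.05, 2 members were lower in the mutant and 0 higher, that is 6.45% lower, beside 3.61% lower and 4.92% higher among all tested genes. The differences were small. Their median size without regard to sign was 0.11 on the log2 scale, against 0.17 over all tested genes. The members ran from -0.66 (RPB3) to 0.34 (RET1). Their median SE was also smaller, 0.17 against 0.20 over all tested genes. The median size of the gap between wild-type replicates was 0.14 for members and 0.28 over all tested genes. Between mutant replicates it was 0.16 and 0.14.

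The 95% intervals set a bound on these differences. For 30 of the 31 genes the interval lay inside a 2-fold difference either way, as it did for 87.7% of all tested genes. The exception was RPB3, whose interval reached -1.19. These are intervals per gene from limma, with 2 arrays a group, and they are not widened for the number of genes.

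**Figure D1:**
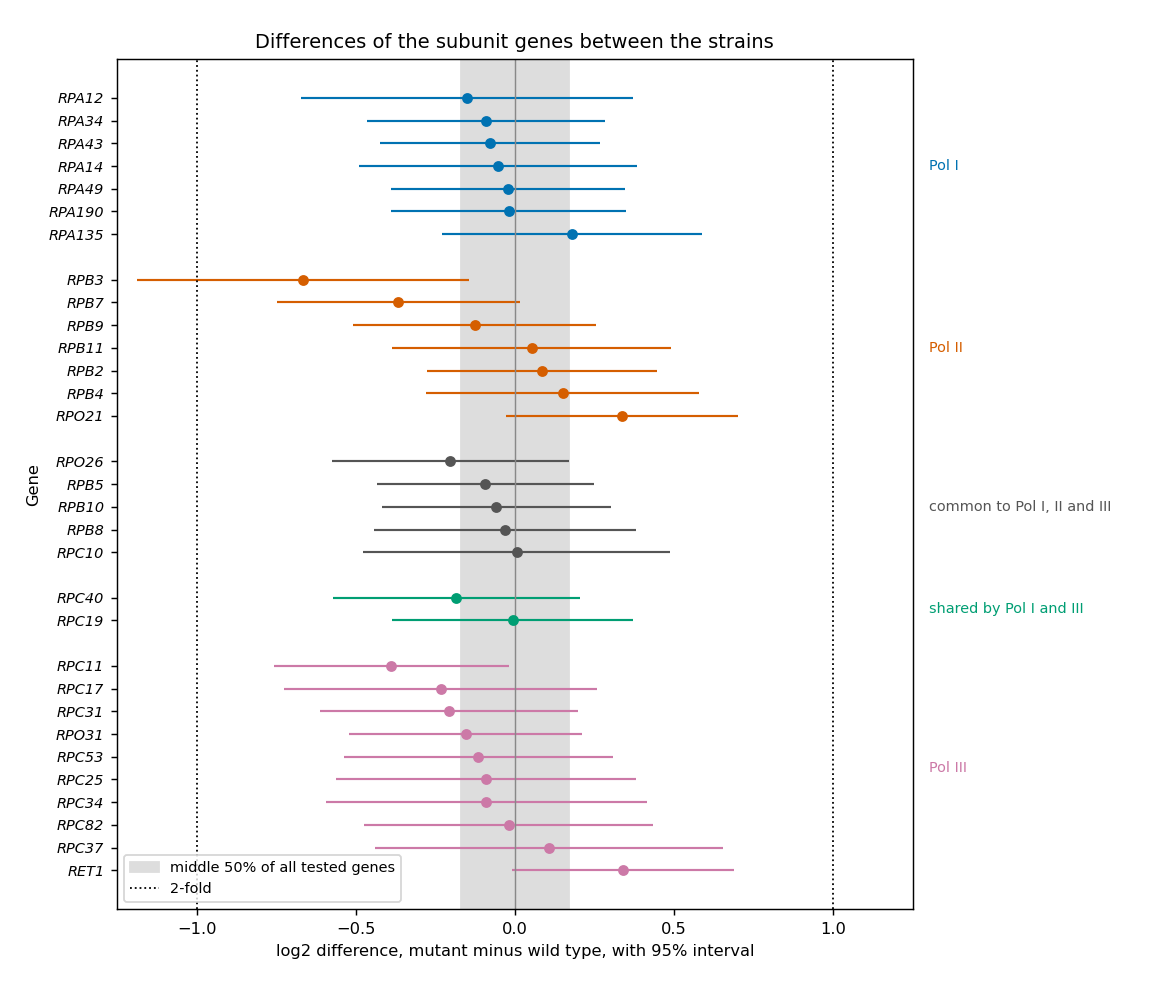
Log2 difference, mutant minus wild type, of each subunit gene (horizontal axis) with its 95% limma interval, by enzyme. The grey band holds the middle 50% of all tested genes, from -0.17 to 0.17, and dotted lines mark 2-fold. Every interval except that of RPB3 stays inside the dotted lines.

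In sign, the members leaned to lower values in the mutant: 23 of 31 were lower, or 74.2%, beside 51.6% of all tested genes. Without centring these shares were 83.9% and 67.3%. With any one array left out, the share of members ran from 64.5% to 67.7%. That of all tested genes then ran from 48.3% to 52.8%. The members' median difference was -0.08, beside -0.01 over all tested genes. Both mutant cultures lay below both wild-type cultures for 10 members (32.3%, beside 18.5% of tested genes) and above both for 3 (9.68%, beside 21.0%), and for the other 18 the groups overlapped. For 11 members (35.5%, beside 25.1%) the difference was larger than the gap between replicates in either strain. These shares are descriptions of a list chosen by name, and members of one enzyme are not replicates of each other.

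**Figure D2:**
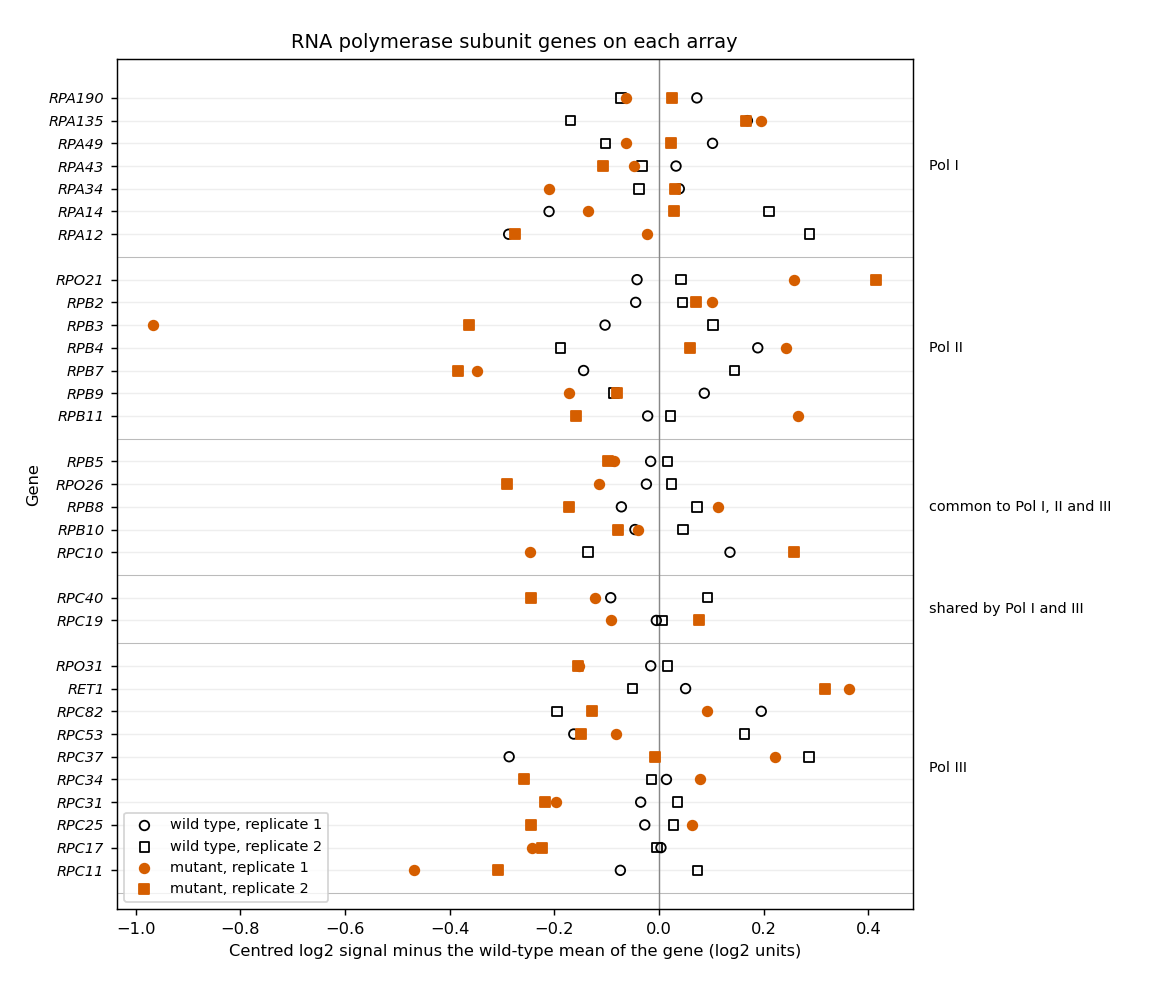
Centred log2 signal of each subunit gene on each of the 4 arrays, less the gene's wild-type mean (horizontal axis, log2 units), by enzyme. Open symbols are wild-type and filled symbols mutant cultures. Filled symbols sit left of both open ones for 10 genes and right of both for 3, RPO21, RPB2 and RET1.

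Pol I genes differed little. Of the 7, 1 was higher and 6 lower in the mutant, with a median of -0.05 and a range from -0.15 (RPA12) to 0.18 (RPA135). RPA190 (YOR341W), the largest catalytic subunit, was read at 429 and 369 in wild-type and at 337 and 394 in mutant cultures. After centring its level was 1.96 ± 0.10 in wild-type and 1.94 ± 0.06 in mutant cultures (log2, SD, n = 2 each), and the groups overlapped. The difference was -0.02, with a 95% interval from -0.39 to 0.35 (SE 0.16, limma adjusted p = 0.988).

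RPA135 (YPR010C), which completes the active centre, was read at 435 and 327 in wild-type and at 382 and 412 in mutant cultures. Wild-type replicate 2 was the low array and wild-type replicate 1 stood with the mutants. Its difference of 0.18 was 0.35 with wild-type replicate 1 left out and 0.012 with wild-type replicate 2 left out. RPA49 and RPA34, which form a dimer resembling factors of Pol II initiation, differed by -0.02 and -0.09. The stalk genes RPA43 and RPA14 differed by -0.08 and -0.05, and RPA12, the cleavage subunit, by -0.15.

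RPA12 showed the widest wild-type gap among the Pol I genes, with 113 and 160 against 117 and 108 in the mutant. It is therefore the least precisely read of them, with an interval from -0.67 to 0.37. RPA43 was the one Pol I gene whose groups did not overlap after centring, at 1.01 ± 0.05 and 0.93 ± 0.04 (log2, SD, n = 2 each). Its difference ran from -0.11 to -0.045 without any one array. RPA43 and RPA190 are neighbours on the chromosome in the RefSeq annotation of assembly R64, and their locus tags (YOR340C and YOR341W) place them on opposite strands.

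RPA190 was the one member with several probe sets, 7 in all, of which the brightest was used. The next brightest, at 184 and 178 in wild-type and 148 and 154 in mutant cultures, gave -0.15. The third, at 57.3 and 57.1 against 59.0 and 69.6, gave 0.26. The names of both of these mark a shared sequence, although the platform annotation gives each RPA190 alone. The other 4 had mean signals from 3.17 to 14.5, below the filter. The mean of those of its probe sets that passed the filter turned the sign, to 0.03.

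Pol II genes spread widest and in both directions, with 4 higher and 3 lower and a median of 0.05. RPO21 (YDL140C) encodes the largest subunit with the C-terminal domain. It was read at 310 and 313 in wild-type and at 330 and 405 in mutant cultures. Both mutant cultures were higher after centring, 1.95 ± 0.11 against 1.61 ± 0.06 (log2, SD, n = 2 each). The difference of 0.34, a ratio of 1.26, did not pass the test (SE 0.16, interval from -0.03 to 0.70, limma adjusted p = 0.612). Without any one array it ran from 0.26 to 0.42.

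RPB2 (YOR151C), the second catalytic subunit, was read at 395 and 400 against 378 and 406. After centring both mutant cultures lay just above the wild types, by 0.09. That is less than the gap between the wild-type replicates, which was -0.09 (replicate 1 minus replicate 2).

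RPB3 and RPB11 form the alpha-like platform on which the enzyme is assembled. RPB3 (YIL021W) was read at 168 and 184 in wild-type and at 78.7 and 133 in mutant cultures. Mutant replicate 1 was the lowest array by a wide margin, and the mutant replicates differed from each other by -0.60. The centred levels were 0.80 ± 0.15 and 0.13 ± 0.43 (log2, SD, n = 2 each). The difference was -0.66, a ratio of 0.631, the lowest among the members and not past the threshold (SE 0.22, interval from -1.19 to -0.14, limma adjusted p = 0.488). It was -0.97 without mutant replicate 2 and -0.36 without mutant replicate 1. RPB11 was read at 137 and 135 against 145 and 118, with mutant arrays on both sides of the wild types and a difference of 0.05. Without mutant replicate 1 both were lower, RPB3 at -0.36 and RPB11 at -0.16, and the gap between them was not tested.

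The stalk of Pol II is formed by RPB7 and RPB4. RPB7 (YDR404C), which contacts RNA, was read at 231 and 269 in wild-type and at 173 and 186 in mutant cultures. Both mutant cultures were lower, close together at 0.93 ± 0.02 against 1.30 ± 0.20 (log2, SD, n = 2 each). The difference of -0.37, a ratio of 0.776, did not pass the test (interval from -0.75 to 0.02, limma adjusted p = 0.609). It was -0.51 with wild-type replicate 1 left out and -0.22 with wild-type replicate 2 left out. RPB4, its partner in the stalk, was read at 181 and 132 against 163 and 157, and differed by 0.15 with overlapping groups. Without wild-type replicate 2 it was at -0.038, on the same side as RPB7, and the gap between these genes was not tested. RPB9, which acts in transcript cleavage and fidelity, differed by -0.13; this was -0.040 with wild-type replicate 1 left out and -0.21 with wild-type replicate 2 left out.

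The 5 genes common to all the enzymes kept close to each other, with a median of -0.06 and a range from -0.20 to 0.01. RPO26 (YPR187W), also called RPB6, was read at 436 and 429 in wild-type and at 354 and 344 in mutant cultures. Its groups did not overlap, and the difference was -0.20 (SE 0.16, interval from -0.58 to 0.17, limma adjusted p = 0.768). It was -0.29 without mutant replicate 1 and -0.12 without mutant replicate 2. RPB5, which sits in the jaw that grips downstream DNA, was read at 275 and 268 against 226 and 247. Its groups did not overlap either, at a difference of -0.09. RPB8 and RPB10 differed by -0.03 and -0.06 with overlapping groups, and without any one array RPB10 ran from -0.10 to -0.013.

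RPC10 (YHR143W-A), also called RPB12, had its mutant cultures on either side of the wild types, with 236 and 186 in wild-type and 156 and 244 in mutant cultures. Its difference was 0.01, with an interval from -0.48 to 0.49. The alpha-like genes shared by Pol I and Pol III were read at 128 and 139 against 108 and 109 for RPC40, and at 482 and 461 against 392 and 484 for RPC19. RPC40 differed by -0.18 without overlap, or by -0.28 with wild-type replicate 1 left out and -0.091 with wild-type replicate 2 left out. RPC19 differed by -0.01 with overlap.

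Of the 10 Pol III genes 8 were lower and 2 higher, with a median of -0.10. RPC11 (YDR045C) encodes the subunit needed for RNA cleavage and for termination by Pol III. It was read at 198 and 209 in wild-type and at 130 and 159 in mutant cultures. Both mutant cultures were lower after centring, 0.61 ± 0.11 against 1.00 ± 0.10 (log2, SD, n = 2 each). The difference of -0.39, a ratio of 0.764, did not pass the threshold (SE 0.16, interval from -0.76 to -0.02, limma adjusted p = 0.562). Without any one array it ran from -0.47 to -0.31.

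RET1 (YOR207C), the second-largest catalytic subunit, went the other way. It was read at 256 and 227 in wild-type and at 275 and 293 in mutant cultures, and both mutant cultures were higher. The difference of 0.34, a ratio of 1.27, did not pass the test (SE 0.15, interval from -0.01 to 0.69, limma adjusted p = 0.596). Without any one array it ran from 0.29 to 0.39. RPO31 (YOR116C), its catalytic partner and the largest subunit, was read at 133 and 130 against 105 and 115. Its replicates lay close together in both strains, and its difference was -0.15 without overlap.

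The subunits that recruit Pol III to its promoters, RPC82, RPC34 and RPC31, differed by -0.02, -0.09 and -0.21. For RPC31, read at 90.8 and 90.7 against 69.8 and 75.6, the groups did not overlap; for RPC82 and RPC34 they did. RPC53 and RPC37, a dimer that acts in termination and reinitiation, differed by -0.12 and 0.11. Among the Pol III genes RPC37 varied most between wild-type cultures, at 65.9 and 94.1, and its mutant values of 81.5 and 76.2 lay between them.

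The Pol III stalk genes RPC25 and RPC17 differed by -0.09 and -0.23. RPC17 was read at 31.7 and 29.9 against 22.6 and 25.3, tight within each strain and without overlap. Its mean signal of 27.4 was close to the filter, whose lowest tested mean was 24.95, and fold changes of dim genes are understated on this scale.

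Set side by side by structural role, the members of 7 paralogous families differed as follows. The second-largest subunits RPA135, RPB2 and RET1 were all higher, by 0.18, 0.09 and 0.34, although RPB2 was at -0.020 without centring. The largest subunits went both ways, with RPA190 at -0.02, RPO21 at 0.34 and RPO31 at -0.15. All 3 zinc-ribbon genes were lower, RPA12 by -0.15, RPB9 by -0.13 and RPC11 by -0.39, and so were the larger stalk genes RPA43 (-0.08), RPB7 (-0.37) and RPC25 (-0.09). The smaller stalk genes RPA14, RPB4 and RPC17 stood at -0.05, 0.15 and -0.23. In the platform, RPB3 and RPC40 stood at -0.66 and -0.18, and RPB11 and RPC19 at 0.05 and -0.01. No gene of these families passed the test, and the sign of RPA12, RPA14, RPA190, RPB2, RPB4, RPB11, RPC19 and RPC25 depended on the setting or on 1 array.

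Of the 6 catalytic genes 4 were higher (median 0.13), and of the 25 other members 21 were lower (median -0.09). Without centring 3 of the 6 were higher and 23 of the 25 lower. The catalytic genes are also the 6 longest members, each of at least 3000 bases in the RefSeq table. Over all tested genes, the 437 of at least 3000 bases had a median of 0.10, with 67.7% higher. The 4139 shorter genes had a median of -0.02, with 46.4% higher. The 25 other members run from 213 bases (RPB10 and RPC10) to 1965 (RPC82). The class of shorter genes was not matched to them in length. The length limit was chosen after the values had been seen. The longer genes in the table also differed between the wild-type replicates, by a median of 0.15, and their median difference between the strains was 0.21 with wild-type replicate 1 left out and 0.027 with wild-type replicate 2 left out. For the 6 catalytic genes the same medians were 0.17 and 0.071. What length has to do with the difference was not tested.

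**Figure D3:**
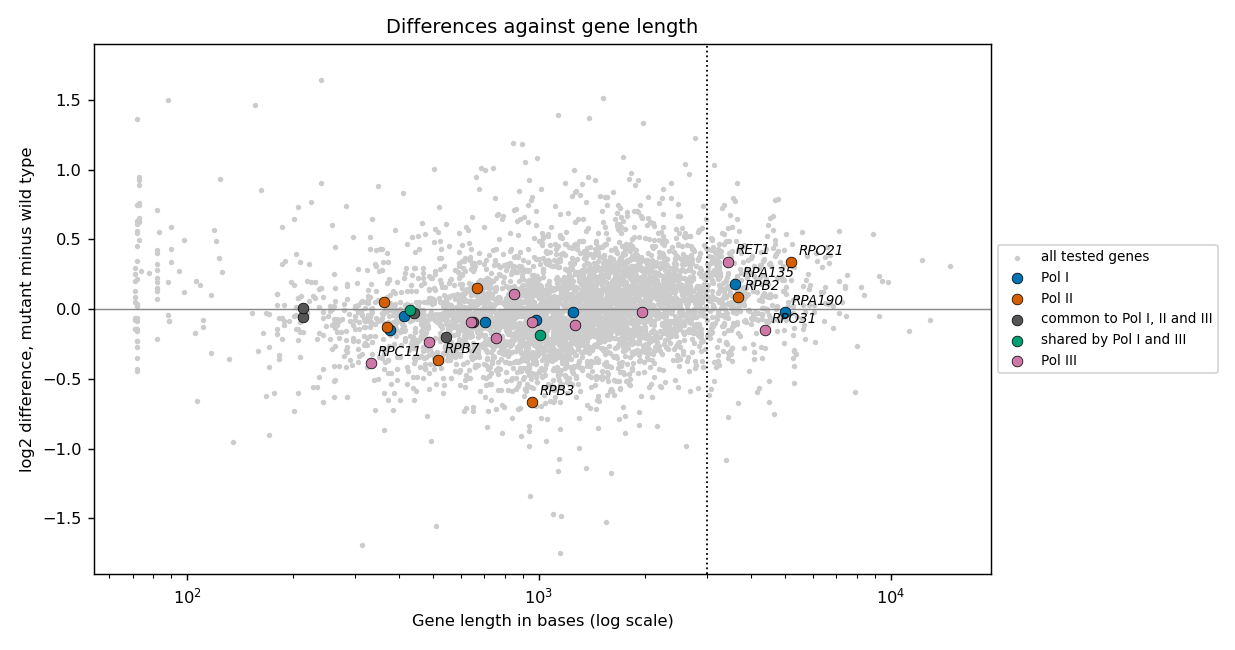
Log2 difference, mutant minus wild type (vertical axis), against gene length in bases (log axis) for all tested genes in grey and the subunit genes in colour by enzyme. The dotted line marks 3000 bases, to the right of which lie the 6 catalytic subunits; 1 tested gene, URA3, lies outside the vertical range.

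The medians of the enzymes were within reach of a single array. The Pol I median was -0.05 with all arrays, -0.09 with wild-type replicate 2 left out, and 0.02 with mutant replicate 1 left out. The Pol II median of 0.05 ran from -0.08 without mutant replicate 1 to 0.10 without mutant replicate 2, and it was -0.04 without wild-type replicate 2. The Pol III median of -0.10 ran from -0.19 without mutant replicate 1 to -0.01 without mutant replicate 2. The medians of the common genes and of the Pol I and III genes kept their sign without any one array, from -0.10 to -0.08 and from -0.14 to -0.05. A difference between the enzymes was not tested.

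**Figure D4:**
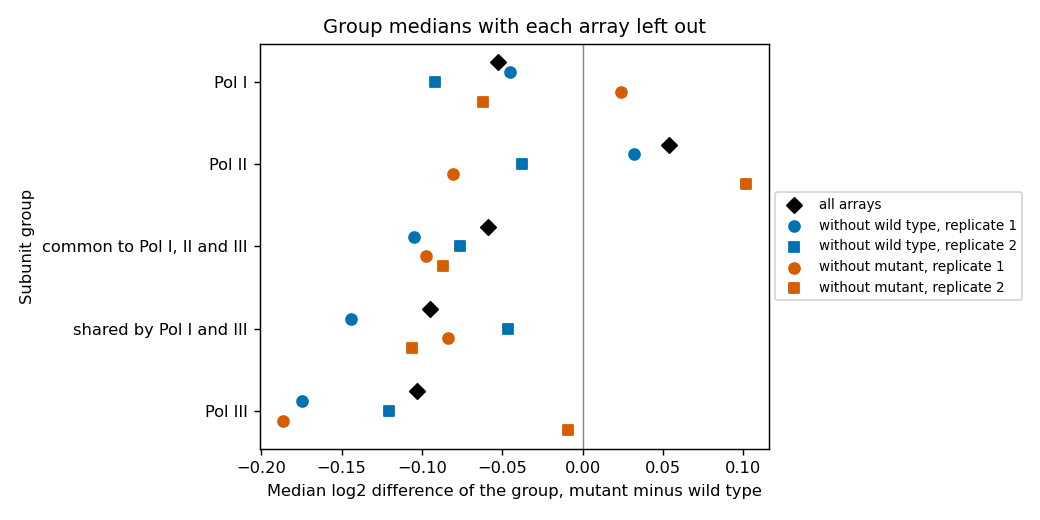
Median log2 difference, mutant minus wild type, of each subunit group (horizontal axis) with all arrays and with each array left out in turn. The Pol I and Pol II medians fall on both sides of 0, and the other 3 groups stay below 0 in all 5 fits.

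Other genes of the polymerase machinery came from 45 listed initiation and assembly factors, of which 39 were tested. They gave 0 calls in either direction in limma, beside 0.0437% of all tested genes. At an unadjusted limma p under 0.05, 1 was lower (2.56%, beside 3.61% of all tested genes) and 0 higher (beside 4.92%). Of the 39, 21 were higher and 18 lower, with a median of 0.01. Among Pol I initiation factors 3 of 6 were higher, with RRN6 of the core factor lowest at -0.59 (59.0 and 47.1 against 32.5 and 31.1, limma adjusted p = 0.547) and RRN3, which joins Pol I to its promoter, highest at 0.20. Among the 18 general factors of Pol II the lowest was TAF14 (-0.19) and the highest TOA1 of TFIIA (0.72). For TOA1 wild-type replicate 2 read 18.7 where the other cultures read 71.5, 65.8 and 50.2, and its difference ran from -0.16 to 1.59 without any one array.

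Among the Pol III factors 6 of 8 were higher, with a median of 0.12. TFC4 of TFIIIC was highest at 0.51, again with a low wild-type replicate 2 (52.9, where the others read 93.4, 92.5 and 95.3), and ran from 0.15 to 0.87 without any one array. MAF1, the repressor of Pol III, was lowest at -0.22. SPT15, the TATA-binding protein used by all the enzymes, differed by 0.11 (281 and 286 against 259 and 311). Assembly and import factors ran from -0.26 (RBA50) to 0.22 (RTP1), with a median of -0.01 over the 6 tested.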

How the data were processed

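The deposited table gives linear intensities, a single value for each probe set and array; the submitters' processing notes name MAS5, without a version or scaling target. Precision is limited by having 2 arrays a group. Of 9335 probe sets, 6504 had 1 gene in the platform annotation, and the 5656 genes matched the RefSeq table of assembly R64. The lowest 25% of these probe sets by mean signal were left out, the highest-mean probe set per gene was kept, log2(signal + 2) was taken and each array was centred on its median over 4576 genes. Fold changes are on that scale and are understated for dim genes. The strains were tested against each other in R 4.3.3 using limma 3.58.1 (lmFit, eBayes with trend, 2 residual and 5.63 prior degrees of freedom), two-sided, adjusted by Benjamini-Hochberg over all tested genes, threshold 0.05. The fit was run on simulated data in which each gene varied alike in both strains, without array effects. It recovered 91 of 100 changes of log2 size 1 and 100 of 100 of size 2, with 14 false calls. That setting is simpler than these arrays, so it does not show how the fit behaves on them. Python 3.11.15, pandas 2.3.3 and matplotlib 3.10.9 made the summaries and figures.

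Arrays were taken as separate cultures because the series' design calls them replicate cultures. The members, the gene lists, the naming rule (all 31 subunits; of other lists the calls and the highest and lowest gene) and the alternatives were chosen with earlier results of these data known. Alternatives covered normalisation, pseudocount, filter, probe set choice, variance model, replicate block and leaving out each array.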

Additional observations from a re-analysis of the deposited data

How the results depend on the processing

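No subunit gene was called under any of the 14 alternatives, as with all arrays (0 called). The smallest limma adjusted p was 0.159 (RPB3, replicate block) among the 10 settings that keep all 4 arrays. The count over all genes, 2 with all arrays, was 11 without centring, 9 with quantile normalisation, 8 with cyclic loess, 7 with the lowest 50% left out, 9 with the mean of probe sets, 1 without the intensity trend, 32 with the replicate block, and from 1 to 21 without an array, where 1 residual degree of freedom is left and the lone array is assumed to vary like the other group. Same-numbered arrays' deviations correlated at 0.044, so the numbers are not taken to pair the cultures. Without centring the median of all genes shifted to -0.11, and the medians of Pol I were at -0.16, Pol II -0.053, Pol III -0.21, the common genes -0.16, the Pol I and III genes -0.20 and all 31 -0.18. With the lowest 50% left out, 28 members were fitted and their median was -0.054. Without an array the median of all 31 ran from -0.11 to -0.063, of Pol I from -0.092 to 0.024, of Pol II from -0.081 to 0.10, of Pol III from -0.19 to -0.0094, and of the common genes from -0.10 to -0.076.

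The sign held in every alternative in which they were fitted for 15 members, 12 lower and 3 higher. RPC17 among them was not fitted with the lowest 50% left out. The sign turned in at least 1 alternative for the other 16, whose differences were at most 0.15 in size. Dropping the intensity trend and adding the replicate block left every member's difference unchanged, so these alternatives could not turn a sign. Without centring RPB2 was at -0.020, RPB11 at -0.053 and RPC10 at -0.10. With quantile normalisation RPB8 was at 0.0042, RPC10 at -0.0055 and RPC19 at 0.040, with cyclic loess RPC10 at -0.0013 and RPC19 at 0.017, without a filter RPC10 at -0.0090, and with the mean of probe sets RPA190 at 0.032. Without an array RPA190 ran from -0.092 to 0.053, RPA49 from -0.12 to 0.082, RPA34 from -0.21 to 0.030, RPA14 from -0.26 to 0.16, RPA12 from -0.44 to 0.14, RPB4 from -0.038 to 0.34, RPB8 from -0.17 to 0.11, RPB11 from -0.16 to 0.27, RPC10 from -0.25 to 0.26, RPC19 from -0.091 to 0.077, RPC25 from -0.24 to 0.063, RPC34 from -0.26 to 0.079, RPC37 from -0.18 to 0.39, RPC53 from -0.28 to 0.048 and RPC82 from -0.21 to 0.18. The cause of these turns was not tested.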

Other observations

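The array also reads some products of Pol I and Pol III, looked at after the values had been seen. Of 10 control probe sets for 18S and 25S ribosomal RNA, 6 had both mutant cultures below both wild-type cultures in deposited signal and 0 had both above, beside 25.8% below and 12.9% above among all 9335 probe sets. Summed over these probe sets, wild-type cultures gave 1280 and 1343, mutant cultures 585 and 413. The wild-type replicates did not get there alike: one 25S probe set read 905 and 115, and another 105 and 588. These signals are what entered the labelled cRNA, they were neither centred nor tested, and they do not measure the cells' ribosomal RNA.

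The 92 transfer RNA probe sets, 88 of them marked as shared with relatives, had a median signal of 30.5 and 21.4 in wild-type cultures against 22.6 and 33.97 in mutant ones. By this median the replicates of a strain lay further apart than the strains, and wild-type replicate 2 was the lowest of the 4 arrays for 60 probe sets (65.2%, beside 33.7% of all probe sets). Both mutant cultures lay above both wild types for 20 of the 92 and below both for 5, that is 21.7% and 5.43%, beside the same 12.9% and 25.8%. RPR1, the RNA of RNase P made by Pol III, was read at 56.3 and 39.6 against 40.9 and 53.1, with a centred difference of 0.09 (SE 0.23, limma adjusted p = 0.956). U6 (SNR6) was read at 8.6 and 8.6 against 17.1 and 13.1, below the filter and not tested. Both mutant cultures lay above both wild types for U6, as for 12.9% of all probe sets. For SNR52, another Pol III product, the strains overlapped, at 23.0 and 8.3 in wild-type against 17.4 and 24.7 in mutant cultures.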
